A study of Mus musculus with 6 samples.

Results

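Cxcr3 is a chemokine receptor and Cxcl9, Cxcl10 and Cxcl11 are its ligands. These 4 genes were taken by name from the 19505 genes with a named probe set on the array, and each had 1 probe set. Their values in Myd88+/+ and Myd88-/- glands were known when they were chosen, so the difference of each between the genotypes is given as a description, with no test. RNA came from submandibular glands of female mice aged 10 weeks, on the NOD background, in which leukocytes infiltrate the salivary glands with age. The groups were 3 samples of the strain labelled NOD.B6-Myd88+/+ and 3 of NOD.B6-Myd88-/-, each on its own Clariom S array. They are called mice here, and pooling of animals is not mentioned in the labels. Values of single mice are always given in the order of replicates 1, 2 and 3. The comparison addresses which gland transcripts differ with Myd88, the adaptor of most Toll-like receptors and of the interleukin-1 receptor family. No deletion restricted to a cell type is named, and gland RNA does not show which cells made a transcript.

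Cxcr3 is a G protein-coupled receptor of activated T cells, above all those of the type 1 helper and cytotoxic kind, and of NK cells. Its ligands are CXC chemokines without the ELR motif that marks neutrophil attractants. They are induced by interferon-gamma in macrophages, endothelium, fibroblasts and epithelium, and the cells they attract make more interferon-gamma. Cxcl10 and Cxcl11 also respond to type I interferon, and Cxcl9 depends more strictly on interferon-gamma. In salivary glands with autoimmune sialadenitis, ligands of this receptor mark ducts and infiltrates.

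Cxcl9 (NCBI gene 17329), Cxcl10 (15945) and Cxcl11 (56066) lie side by side on chromosome 5, and Cxcr3 (12766) lies on chromosome X. Myd88 is on chromosome 9, so none of the 4 lies on the chromosome of the mutated gene. Linkage to Myd88 was not analysed for the other genes named below. RefSeq annotates Cxcl11 of the C57BL/6J reference (GRCm38.p6) as a transcribed pseudogene. Whether the NOD mice carry an intact copy was not analysed here. The RefSeq promoter table of the same build held 3 of the 4 genes, and the 250 bases before the start are shown for the 2 ligands with the largest differences, so that their interferon and NF-kB elements can be compared. Both sequences are from the minus strand and end with the base before the start, at chr5:92328080-92328329 for Cxcl9 and chr5:92348890-92349139 for Cxcl10. Capitals mark matches to the motifs described next.
Cxcl9: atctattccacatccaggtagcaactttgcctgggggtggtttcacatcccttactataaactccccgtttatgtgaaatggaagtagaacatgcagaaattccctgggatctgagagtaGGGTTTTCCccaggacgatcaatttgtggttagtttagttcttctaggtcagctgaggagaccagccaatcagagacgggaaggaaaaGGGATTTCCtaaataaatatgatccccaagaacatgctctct
Cxcl10: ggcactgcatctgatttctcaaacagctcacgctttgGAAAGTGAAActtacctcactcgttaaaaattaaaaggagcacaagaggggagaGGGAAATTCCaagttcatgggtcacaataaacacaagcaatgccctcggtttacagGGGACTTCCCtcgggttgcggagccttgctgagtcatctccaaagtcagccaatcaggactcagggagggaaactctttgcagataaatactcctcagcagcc

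Both strands were searched for 4 motifs. The interferon-stimulated response element core, GAAANNGAAA, is bound by interferon regulatory factors and occurred once in the Cxcl10 window, as GAAAGTGAAA from 213 to 204 bases before the start. It occurred in 2.98% of all 32851 windows of this length. The NF-kB consensus decamer occurred in 3.90% of windows and matched Cxcl10 at 159 to 150 bases (GGGAAATTCC) and at 103 to 94 bases (GGGACTTCCC). A 9-letter NF-kB form, GGGNNTTCC, was added after the Cxcl9 sequence had been seen. It matched Cxcl9 at 130 to 122 bases (GGGTTTTCC) and at 42 to 34 bases (GGGATTTCC), and Cxcl10 at 103 to 95 bases, inside its second decamer. That form occurred in 4.98% of windows. The interferon-gamma-activated site TTCNNNGAA, present in 7.02% of windows, matched neither ligand. The Cxcl9 window held no response element core and no decamer, and the Cxcr3 window held none of the 4 motifs. The absence of a match says only that these letters are not in the window, and the mice were not of the reference strain.

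Array medians on the log2 scale were at most 6.10. The 23 background control probe sets had a median of 5.55, and their means ran from 3.01 to 6.83 with the base composition of the probes, so a value in that span may hold little signal. The secretory genes of the gland were bright: Smgc, a mucin-like protein of the submandibular gland, averaged 19.29 and 19.07 in Myd88+/+ and Myd88-/- glands. Klk1 was on the ceiling of 19.93 on every array. The probe set of Myd88 read 7.81, 7.86 and 7.53 in the Myd88+/+ mice against 7.33, 6.80 and 7.47 in the Myd88-/- mice. It lay lower in Myd88-/- without overlap, with a difference of −0.53, 1.44-fold lower (limma adjusted p = 0.46), and whether its probes lie in the deleted part was not analysed here. Limma, a linear model with variances moderated across probe sets, called 0 of 22206 probe sets higher or lower at a Benjamini-Hochberg adjusted p under 0.05. The called share was 0% in each direction. At an unadjusted p under 0.05, limma counted 5.55% of probe sets lower and 4.5% higher in Myd88-/- glands. The median difference over all genes was 0.01.

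Cxcl9 read 7.87, 10.80 and 12.46 in the Myd88+/+ mice against 6.38, 5.79 and 6.74 in the Myd88-/- mice, in log2 units. All 3 Myd88-/- glands lay below every Myd88+/+ gland, and the nearest pair was 1.13 apart. The means were 10.38 ± 2.32 (SD, n = 3) and 6.30 ± 0.48 (SD, n = 3). The difference, Myd88-/- minus Myd88+/+, was −4.07 with a standard error (SE) of 0.91 from the fit, a 16.8-fold lower level as measured. Of the 19505 genes it had the most negative difference. The wild-type glands were far from alike, with a 24.0-fold span between replicates 1 and 3, whereas the Myd88-/- glands spanned 0.95 log2 units. Without Myd88+/+ replicate 1 the difference was −5.32, and without Myd88+/+ replicate 3 it was −3.03. All 6 values lay above the background control median of their array, but the 3 Myd88-/- values lay within the span of the background controls, up to 6.83. The size of the fold is therefore uncertain. In RNA of a bulk gland, fewer cells of a type and less RNA per cell cannot be told apart.

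Cxcl10 had the same direction on a dimmer probe set. It read 4.95, 5.89 and 6.06 in the Myd88+/+ mice against 4.23, 4.54 and 4.52 in the Myd88-/- mice. The groups did not overlap, with a gap of 0.41 between the lowest wild-type and the highest Myd88-/- gland. The means were 5.64 ± 0.60 and 4.43 ± 0.17 (SD, n = 3 each), a difference of −1.21 with an SE of 0.28, or 2.31-fold lower. All 3 Myd88-/- glands and Myd88+/+ replicate 1 lay under the background control median of their array. All 6 values, those of Myd88+/+ replicates 2 and 3 included, lay within the span of the background controls, up to 6.83. With values under 5.55 set to 5.55, an alternative chosen after seeing the data, the difference was −0.28, so the size of the fold is uncertain.

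Cxcl11 lay within the range of the background controls in every mouse. It read 3.91, 3.80 and 4.26 in the Myd88+/+ mice against 3.75, 3.94 and 3.88 in the Myd88-/- mice, and all 6 values lay under the background control median. The groups overlapped, with a difference of −0.13 (SE 0.18). Without Myd88+/+ replicate 3 the difference was 0.0047. At this signal a difference in Cxcl11 was not detectable.

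The receptor gene, Cxcr3, read 7.39, 7.57 and 7.94 in the Myd88+/+ mice against 7.41, 7.35 and 7.91 in the Myd88-/- mice. Every value lay above the background control median, and the groups covered nearly the same range. The means were 7.64 ± 0.28 and 7.56 ± 0.31 (SD, n = 3 each). The difference was −0.08 with an SE of 0.22, smaller than the span of 0.55 within Myd88+/+ and of 0.56 within Myd88-/- glands. Quantile normalization gave 0.03 and leaving out single mice gave −0.26 to 0.07, so its sign is not settled.

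**Figure D1:**
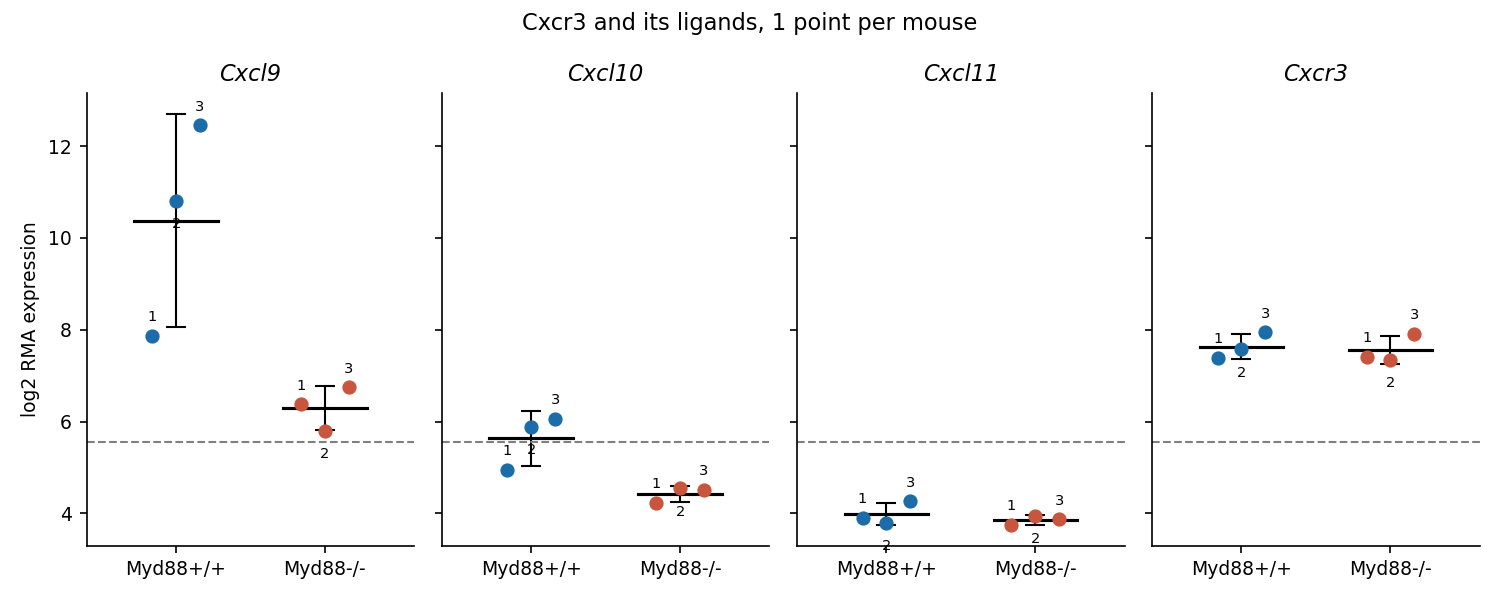
Log2 RMA expression of Cxcl9, Cxcl10, Cxcl11 and Cxcr3 in each mouse (points, labelled by replicate number), with the group mean (wide bar) and SD (whiskers, n = 3) and the background control median of 5.55 (dashed line). Cxcl9 and Cxcl10 do not overlap between the genotypes, Cxcl11 lies under the dashed line, and Cxcr3 covers the same range in both groups.

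Of the 4 genes, 2 had groups that did not overlap, both lower in Myd88-/-, where 7.25% of all probe sets were lower and 7.84% higher without overlap. The same 2 were at least 2-fold lower, as were 0.829% of all probe sets, and 0.0721% were at least 2-fold higher. These shares are background only, because the genes were chosen on this contrast. Myd88+/+ replicate 3 had the highest value of the 6 mice for all 4 genes, as it had for 14.3% of probe sets. For Cxcl9 and Cxcl10 replicate 1 was the lowest of the wild-type mice and replicate 3 the highest, all above the Myd88-/- mice, a pattern of 1.51% of probe sets. For Cxcr3, Myd88+/+ replicate 3 and Myd88-/- replicate 3 were both high, at 7.94 and 7.91, and the other 4 mice read 7.35 to 7.57.

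Profiles over the 6 mice were then compared after each gene was centred on its mean and divided by its SD. Likeness was the mean absolute difference between 2 profiles, in SD units, and is a description over 6 arrays that share the same genotype contrast. Cxcl9 and Cxcl10 lay 0.19 apart, whereas Cxcl9 lay 0.61 from Cxcl11 and 0.61 from Cxcr3. Among 2590 genes above the background control median and with a range of at least 1 log2 unit, the 6 most like Cxcl9 were Bst2 (0.040), Gbp3 (0.099), Psmb8 (0.11), Prcp (0.12), Klri2 (0.13) and Tap1 (0.13). Bst2 is an interferon-induced protein that tethers viruses to the cell surface. It read 7.51, 8.18 and 8.60 in the Myd88+/+ mice against 7.17, 7.10 and 7.23 in the Myd88-/- mice, the order of Cxcl9 over a narrower range. Gbp3 is an interferon-inducible GTPase, Psmb8 a subunit of the immunoproteasome, Tap1 a subunit of the peptide transporter of MHC class I, Prcp a lysosomal carboxypeptidase and Klri2 a receptor of NK cells. All 3 Myd88-/- values of Gbp3, Prcp and Klri2, like those of Cxcl9, lay within the span of the background controls, up to 6.83. Those of Bst2, Psmb8 and Tap1 lay above it. The part of low signal in the likeness was not tested.

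The genes most like Cxcl10 were Shisa5 (0.14), Tmem176b (0.16), Ifi204 (0.17), an interferon-inducible DNA sensor, and Casp4 (0.18), an inflammatory caspase. Every value of Cxcl10 and every Myd88-/- value of Casp4 lay within the span of the background controls. The genes most like Cxcr3 were Tbc1d10c (0.16), a signalling regulator of lymphocytes, Pstpip1 (0.18), a cytoskeletal adaptor of leukocytes, Pde2a (0.24) and Pip5k1c (0.25). Like Cxcr3, Tbc1d10c was highest in the 2 mice numbered 3, at 7.49 and 7.42 against 6.25 to 6.46 in the rest. Those most like Cxcl11 were Adam9 (0.16), Sel1l3 (0.16), Nupr1 (0.17) and Reep6 (0.20), a likeness to a profile within background.

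**Figure D2:**
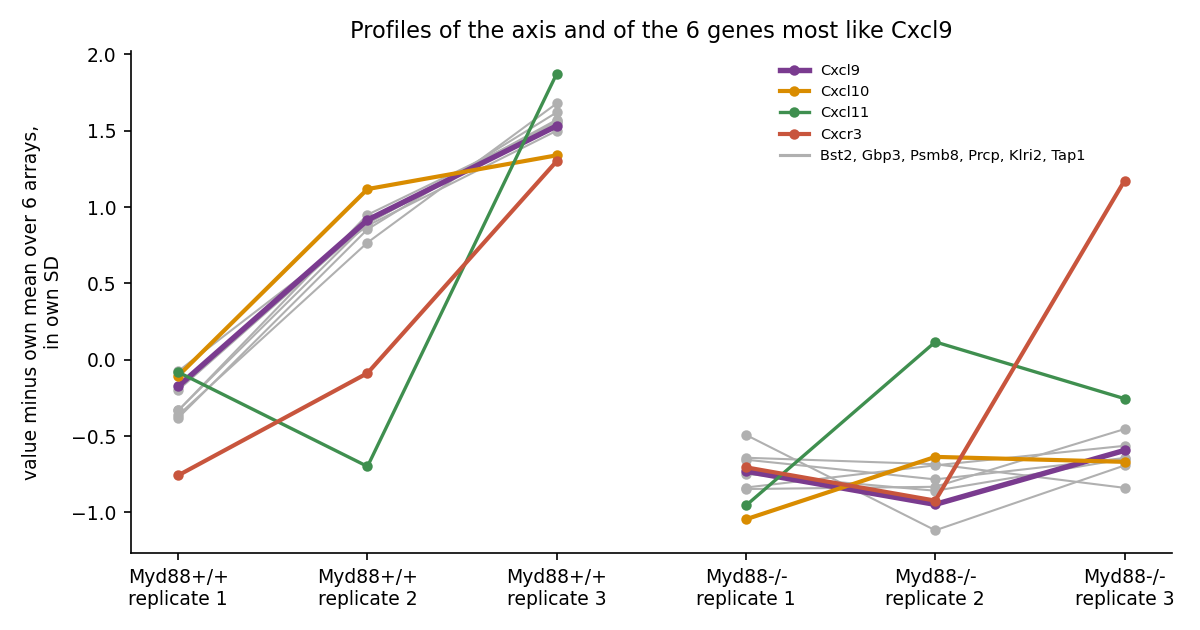
Standardised profiles (value minus the gene's own mean over the 6 arrays, in its own SD) of the 4 genes and of the 6 genes most like Cxcl9, with mice on the horizontal axis and lines joining mice of 1 genotype, which have no order. Cxcl9 and Cxcl10 run together and are low in all 3 Myd88-/- mice, and Cxcr3 is high in Myd88-/- replicate 3.

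Interferon-gamma and its signalling path came next, as the known inducers of the ligands. Of 9 measured genes, 9 had a lower mean in Myd88-/- glands, with a median difference of −0.23, and 2 of the 9 had an unadjusted p under 0.05. None was called by limma over all probe sets (0 of 9). Irf1, an interferon-induced transcription factor, read 8.27, 8.16 and 9.06 in the Myd88+/+ mice against 7.34, 7.83 and 7.11 in the Myd88-/- mice. Its groups did not overlap, with a difference of −1.07 (SE 0.28, limma adjusted p = 0.36). Jak2, a kinase bound to the interferon-gamma receptor, had a difference of −0.98 (SE 0.21, limma adjusted p = 0.33), also without overlap. The receptor chains Ifngr1 and Ifngr2 had differences of −0.04 and −0.23 and the kinase gene Jak1 −0.36, all with overlapping groups. The cytokine itself, Ifng, averaged 5.55 ± 0.15 and 5.24 ± 0.63 (SD, n = 3 each), at background level. Its difference of −0.31 turned to 0.04 without Myd88-/- replicate 2. Myd88+/+ replicate 3 was the highest mouse for all 9 genes.

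Genes that promote interferon-gamma production had no common direction. Of 12 measured, 5 were lower and 7 higher, with a median of 0.03, and 7 had both group means under the background control median. Tbx21, the transcription factor of type 1 helper cells that also drives Cxcr3, averaged 4.15 and 4.21, under the background control median in all 6 mice. Stat4, which relays interleukin-12, had a difference of −1.09 (limma adjusted p = 0.48) with overlapping groups. It lay under the background control median of its array in 2 of 3 Myd88+/+ and 3 of 3 Myd88-/- mice. Il27, Ebi3 and Il12rb2 had differences of 0.39, 0.31 and 0.30, each on a probe set within background.

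Other genes induced by interferon-gamma were mostly lower in Myd88-/- glands by their means. Of 16 measured genes, 13 were lower and 3 higher in Myd88-/- glands, with a median difference of −1.36 beside 0.01 over all genes. At an unadjusted p under 0.05 limma counted 9 lower and 1 higher, and 0 passed over all probe sets. The higher one was Ido1, with a difference of 0.75 (limma adjusted p = 0.39) without overlap. It lay under the background control median of its array in all 6 mice. Of the 16 genes, 4 had both group means under the background control median. The list was chosen with earlier results of these arrays known, so its direction is not independent evidence. Gbp2, a GTPase of cell-autonomous defence, read 8.12, 9.40 and 10.13 in the Myd88+/+ mice against 6.99, 7.93 and 6.96 in the Myd88-/- mice. Its difference was −1.92 (SE 0.47, limma adjusted p = 0.35). Psmb8, Irgm2 and Iigp1 had differences of −1.51, −1.52 and −1.21 at limma adjusted p-values of 0.34, 0.35 and 0.36, again without overlap. All 3 Myd88-/- values of Irgm2 and of Iigp1 lay within the span of the background controls, up to 6.83. The sizes of these 2 differences are therefore uncertain. The GTPase genes belong to families of close copies that can share probes. Without Myd88+/+ replicate 1 the list's median was −1.90, and without Myd88+/+ replicate 3 it was −0.86. Of the 11 of these genes with a promoter window, 6 held the response element core and 5 the interferon-gamma-activated site. Over all 27025 genes with a window, the shares were 3.46% and 8.13%.

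Cxcl10 can also be driven by type I interferon and by NF-kB, the latter a transcription factor downstream of Myd88. Of 13 genes of the type I interferon input, 11 were lower and 2 higher, with a median of −0.19. At an unadjusted p under 0.05 limma counted 2 lower and 0 higher, and 0 passed over all probe sets. These 2 were the receptor chain Ifnar2, with a difference of −0.44, and Irf9, a part of the complex that binds response elements, with −0.81, both at a limma adjusted p of 0.46. Stat2, its partner in that complex, had −0.68 and the RNA sensor gene Ifih1 −0.61, with overlapping groups. Of 10 genes of the NF-kB input, 8 were lower and 2 higher, with a median of −0.27, and limma counted 0 lower and 1 higher at an unadjusted p under 0.05 and 0 after adjustment. The higher one was the kinase gene Ikbke, with 0.49 (limma adjusted p = 0.43). Rela, an NF-kB subunit, had −0.36, Tnfrsf1a, a receptor for tumour necrosis factor, −0.37 and Il1r1, the interleukin-1 receptor, −0.48.

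Among the other CXC chemokines, Cxcl13, which draws B cells into follicles through Cxcr5, was the nearest to Cxcl9 in size. It read 8.97, 10.04 and 12.37 in the Myd88+/+ mice against 7.52, 7.47 and 7.88 in the Myd88-/- mice. The wild-type mice thus stood in the same order as for Cxcl9, and the difference was −2.84 (SE 0.68, limma adjusted p = 0.35). Cxcl16, a membrane-bound chemokine of macrophages and the ligand of Cxcr6, had −0.90, and Cxcl12, a stromal chemokine, −0.59, both without overlap. The mucosal chemokine gene Cxcl17 had −0.49, and Cxcl14 had −0.38 without overlap. The neutrophil attractants Cxcl1, Cxcl2, Cxcl3 and Cxcl5 had 0.25, −0.02, 0.33 and 0.08. Platelet-derived Ppbp and Pf4 had 0.28 and 0.09, and Cxcl15 had 0.03. Cxcl1, Cxcl2, Cxcl5, Cxcl15 and Ppbp lay under the background control median of their array in all 6 mice. At this signal differences in these 5 genes were not detectable. Over all 12 other CXC chemokine genes, 6 were lower and 6 higher, with a median of 0.01. Without the dimmest 30% of probe sets the median of the list was −0.49. Limma counted 4 lower and 0 higher at an unadjusted p under 0.05 and 0 after adjustment.

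Of 20 CC, CX3C and XC chemokine genes, 14 were lower and 6 higher, with a median of −0.31. Limma counted 7 lower and 0 higher at an unadjusted p under 0.05 and 0 after adjustment. Ccl8, a monocyte and T cell attractant, read 6.58, 7.53 and 9.47 in the Myd88+/+ mice against 5.79, 5.32 and 4.89 in the Myd88-/- mice. Its difference was −2.53 (SE 0.61, limma adjusted p = 0.35), with wild-type mice in the order seen for Cxcl9. Ccl9, Ccl22 and Cx3cl1 had differences of −1.35, −1.22 and −0.66 at limma adjusted p-values of 0.32, 0.32 and 0.38. All 6 Cx3cl1 values, the 3 Myd88-/- values of Ccl22 and 2 of the 3 Myd88-/- values of Ccl8 lay under the background control median of their array, so the sizes of these differences are uncertain.

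**Figure D3:**
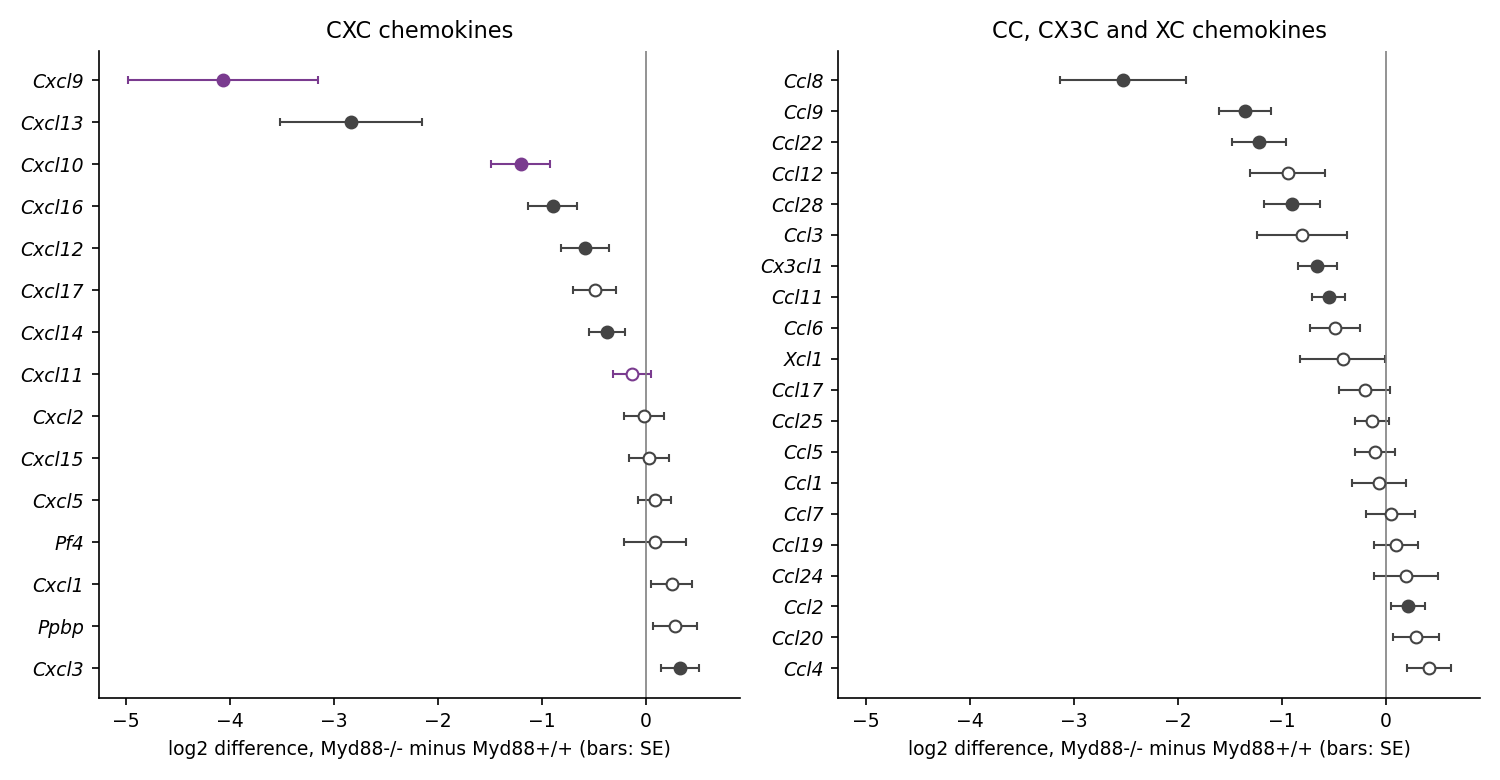
Log2 difference, Myd88-/- minus Myd88+/+, of each chemokine gene (points, with SE from the fit), in purple for the 3 ligands of Cxcr3. Points are filled where the 3 mice of each genotype do not overlap; Cxcl9 at −4.07, Cxcl13 at −2.84 and Ccl8 at −2.53 stand furthest to the left.

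Genes that act on the ligands or below the receptor were examined last. Dpp4, the peptidase that trims all 3 ligands at their amino end, averaged 13.38 ± 0.26 and 13.21 ± 0.17 (SD, n = 3 each), a difference of −0.17 with overlapping groups (limma adjusted p = 0.80). Anpep, which trims Cxcl11, had −0.78 (limma adjusted p = 0.38), and the proteases Mmp2 and Furin had −1.16 and −0.55. Sdc4, a heparan sulphate proteoglycan, had −0.54. In this list of 11 proteases and carriers, 7 were lower and 4 higher, with a median of −0.54, and limma counted 5 lower and 0 higher at an unadjusted p under 0.05 and 0 after adjustment. Ackr3, an atypical receptor that also binds Cxcl11, averaged 5.60 and 5.81 with overlapping groups. Among 9 other CXC and atypical receptors, 3 were lower and 6 higher. Limma counted 1 lower and 0 higher at an unadjusted p under 0.05 and 0 after adjustment. The 1 lower gene was Cxcr5, with −0.44. Cxcr1, Ackr2 and Ackr1 had 0.38, 0.38 and 0.28, and 7 of the 9 had both group means under the background control median. Of 16 genes that signal below Cxcr3, 13 were lower and 3 higher, with a median of −0.29. Limma counted 6 lower and 0 higher at an unadjusted p under 0.05 and 0 after adjustment. The inhibitory G protein gene Gnai2 had −0.61, Plcb2 −0.78, and the migration adaptors Dock2 and Elmo1 −1.05 and −0.60. Plcb2 lay under the background control median of its array in 2 of 3 Myd88+/+ and 3 of 3 Myd88-/- mice.

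Markers of the cells that carry Cxcr3 were dim. Of 22 measured T and NK cell markers, 16 were lower and 6 higher, with a median of −0.31, and 11 had both group means under the background control median. The mean log2 level of the list ran from 5.33 to 6.14 in Myd88+/+ and from 5.26 to 5.52 in Myd88-/- glands, so the groups overlapped. Limma counted 3 lower and 1 higher at an unadjusted p under 0.05 and 0 after adjustment. Myd88+/+ replicate 3 had the highest value of the 6 mice for 14 of the 22. The receptor genes Ncr1 and Klrk1 of NK cells had −1.18 and −0.77, the granzyme gene Gzma −0.88 and Cd247 0.52. All 3 Myd88-/- values of Ncr1 lay under the background control median of their array, as did 1 of Gzma. The part of these cells in the Cxcr3 values was not tested.

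Markers of 2 kinds of cells that can make the ligands had larger median differences than the T and NK cell markers. All 12 of 12 measured macrophage and monocyte markers were lower, with a median of −0.97. Their mean level ran from 7.88 to 8.84 in Myd88+/+ and from 7.16 to 7.43 in Myd88-/- glands, without overlap. Limma counted 9 lower and 0 higher at an unadjusted p under 0.05 and 0 after adjustment. Csf1r, the growth factor receptor of macrophages, read 9.16, 9.23 and 10.00 in the Myd88+/+ mice against 8.33, 8.40 and 7.96 in the Myd88-/- mice, a difference of −1.23 (SE 0.25, limma adjusted p = 0.32). The complement gene C1qb had −1.63, the integrin gene Itgam −1.36 and Ly6c2, which has a close copy, −1.07. All 3 Myd88-/- values of Itgam lay under the background control median of their array. All 6 measured fibroblast markers were lower too, with a median of −0.80, with mean levels of 11.34 to 12.06 and 10.40 to 11.11 and 5 lower and 0 higher at an unadjusted p under 0.05 and 0 after adjustment. Col1a2, a collagen chain, had −1.12 and Dpt, a matrix protein, −1.30. The part of either cell type in the ligand values was not tested.

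The other marker lists overlapped between the genotypes in their mean level. Medians were −0.13 for dendritic cell, −0.03 for B and plasma cell and −0.11 for endothelial markers. They were −0.09 for acinar, −0.05 for duct and −0.56 for myoepithelial and basal markers. In that order limma counted 3, 1, 0, 0, 1 and 2 markers lower at an unadjusted p under 0.05. It counted 0 higher, and 0 in either direction after adjustment. Dendritic cell markers ran from 5.05 to 5.54 in Myd88+/+ and from 4.94 to 5.21 in Myd88-/- glands, with 6 of 10 lower, among them Ccl22, Xcr1 with −0.68, Itgax with −0.40 and Cd209a with −0.28. All 3 Myd88-/- values of each of these 4 genes lay under the background control median of their array. So did 3 of 3 Myd88+/+ values of Itgax, 2 of Cd209a and 1 of Xcr1. Of the 10 dendritic cell markers, 6 had both group means under the background control median. B and plasma cell markers ran from 5.54 to 6.29 and from 5.50 to 5.81, with 6 of 10 lower, Jchain at −2.18 and Mzb1 at 0.20. Endothelial markers ran from 6.15 to 6.29 and from 5.91 to 6.20, with 7 of 11 lower, Vcam1 at −0.53 and Pecam1 at −0.32. Acinar markers ran from 17.34 to 17.63 and from 17.28 to 17.43, and duct markers from 13.40 to 13.61 and from 13.21 to 13.51. In the acinar list and in the duct list, 1 marker each was on the ceiling of 19.93 on every array and could show no difference. Aqp5, the water channel of acini, had −0.14, and Ascl3 and Krt19 of the ducts −0.96 and −0.24, the latter under the background control median of its array in 5 of 6 mice. Myoepithelial and basal markers ran from 9.37 to 9.88 and from 8.86 to 9.53, with Trp63 at −1.18 and Acta2 at −0.81.

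For tissue next to the gland, lymph node stroma and vessel markers ran from 5.27 to 5.88 in Myd88+/+ and from 4.97 to 5.32 in Myd88-/- glands. The list also holds Cxcl13, and 6 of its 8 markers had both group means under the background control median, Chst4 with a difference of 0.33 among them. Adipose markers ran from 5.28 to 6.07 and from 5.67 to 5.70. Of these 6 markers, 5 had both means under that median, including Retn with 0.21, and Fabp4, which endothelium shares, had 0.35.

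**Figure D4:**
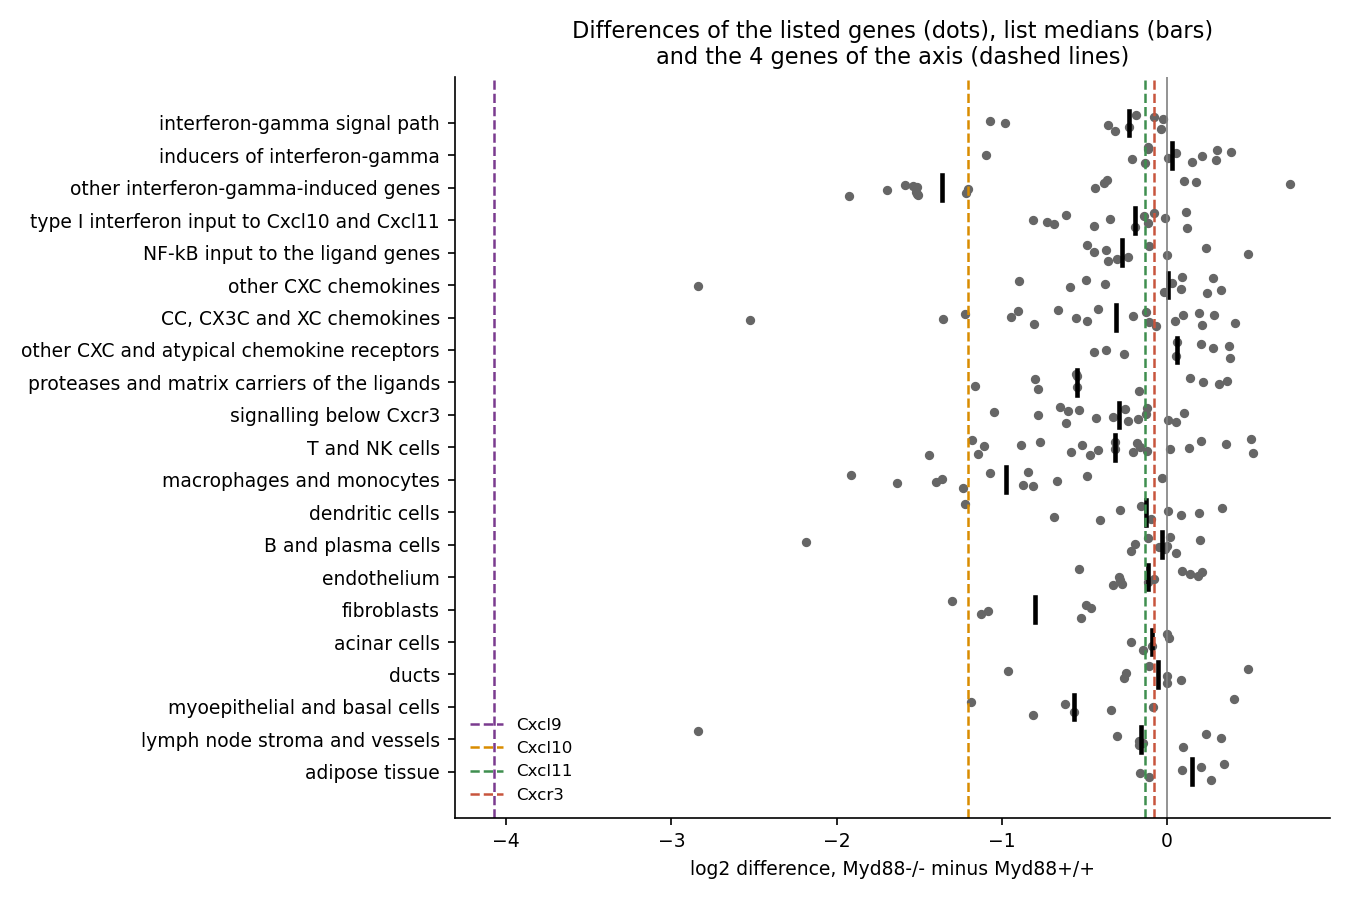
Log2 difference, Myd88-/- minus Myd88+/+, of every measured gene of the 21 lists (dots), with each list's median (bar) and the differences of the 4 genes of the axis (dashed lines). Cxcl9 lies beyond every listed gene, Cxcl10 lies near the median of the other interferon-gamma-induced genes at −1.36, and Cxcl11 and Cxcr3 lie near 0.

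The genes around the ligand cluster were read as a local comparison. In the RefSeq order, Ppef2, Naaa and Sdad1 precede Cxcl9, and Nup54, Scarb2 and Fam47e follow Cxcl11. Cxcl10 and Cxcl11 lie within the span of Art3, which runs on the opposite strand to Cxcl10. Art3, an ADP-ribosyltransferase gene, averaged 6.11 ± 0.25 and 6.33 ± 0.31 (SD, n = 3 each), a difference of 0.22 with overlapping groups. Naaa, a lysosomal amidase, read 7.89, 8.10 and 9.31 in the Myd88+/+ mice against 7.08, 7.29 and 6.50 in the Myd88-/- mice. Its groups did not overlap, with a difference of −1.48 (SE 0.36, limma adjusted p = 0.35). Fam47e lay the other way, without overlap, at 0.70 (limma adjusted p = 0.41). Ppef2, Sdad1, Nup54 and Scarb2 had differences of 0.10, 0.22, 0.01 and 0.03 with overlapping groups. Ppef2 lay under the background control median in every mouse. Every Art3 value and the 3 Myd88+/+ values of Fam47e lay within the span of the background controls. The sizes of the differences of Ppef2, Art3 and Fam47e are therefore uncertain.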

How the data were processed

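The authors deposited 1 table of log2 values, which the labels call RMA (robust multi-array average) output of the Transcriptome Analysis Console. The software version, the RMA variant and the annotation build are unknown here. The labels do not name the scale, and the range of the values fits log2. RMA compresses differences near background, and the number of arrays limits precision.

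Of 28846 rows, 22206 were probe sets other than controls. Of these, 19572 had 1 gene symbol in the platform annotation and 2634 were unnamed here. The probe set with the highest mean stood for a gene. Gene order and promoters came from RefSeq (GRCm38.p6).

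Samples were grouped by their titles. Limma 3.58.1 in R 4.3.3 (lmFit, eBayes) compared the genotypes over all 22206 probe sets with Benjamini-Hochberg adjustment, and was tested on simulated data. P-values measure the spread between these samples only.

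The members and the 21 lists (256 genes, 230 measured) were chosen with earlier results of these data known. Genes named were the members, Myd88, Ifng, its receptor chains, Irf1, Tbx21, Dpp4 and Ackr3, every CXC chemokine, the genes of lowest unadjusted p in each list, at most 4 (at most 2 for cell types other than T and NK cells, macrophages and dendritic cells), the genes most alike in profile and the neighbours of the ligand cluster. Klk1 and Ido1 were named outside this rule.

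Alternatives covered between-array normalization (quantile, median centring, cyclic loess), filters that drop the dimmest 30% or 50% of probe sets, a trended robust variance, array weights, a replicate block and each mouse left out.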

Additional observations from a re-analysis of the deposited data

How the results depend on the processing

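The differences of Cxcl9 and Cxcl10 were negative under every setting tried. Their groups do not overlap, so leaving out mice, array weights, the replicate block or the background limit could not turn the sign. Leaving out 1 mouse gave −5.32 to −3.03 for Cxcl9, −1.55 to −0.99 for Cxcl10, −0.23 to 0.0047 for Cxcl11 and −0.26 to 0.07 for Cxcr3. Setting values under the background control median to it, chosen after seeing the data, gave −0.28 for Cxcl10 and no value for Cxcl11. Each of the 4 genes has 1 probe set, so no other could be tried. Limma called 0 probe sets lower, 2 after median centring, 4 with an intensity trend and robust variances, and 0 to 5 without 1 mouse (5 without Myd88+/+ replicate 1, 1 without Myd88+/+ replicate 3, 1 without Myd88-/- replicate 2). It called 0 higher under every setting run. The median of the other interferon-gamma-induced genes ran from −1.90 to −0.86 without 1 mouse. Small differences turned sign, and the cause was not tested. Quantile normalization gave 0.093 for Ifngr1, −0.065 for Cxcl15 and −0.044 for Tbx21. Cyclic loess gave 0.074 for Ifngr1, −0.062 for Cxcl15, −0.040 for Tbx21 and −0.0046 for Cxcl5. Array weights gave −0.010 for Cxcl15 and −0.030 for Pf4. Without 1 mouse the range was −0.045 to 0.46 for Ackr3, −0.26 to 0.029 for Aqp5, −0.11 to 0.11 for Cxcl15, −0.12 to 0.12 for Cxcl2, −0.55 to 0.044 for Ifng, −0.16 to 0.091 for Ifngr1, −0.21 to 0.34 for Pf4, −0.47 to 0.048 for Smgc and −0.0078 to 0.11 for Tbx21. The replicate block gave −4.07 for Cxcl9, −1.21 for Cxcl10, −0.13 for Cxcl11 and −0.08 for Cxcr3, and 0 calls in either direction. Deviations of same-numbered mice correlated at −0.11, −0.15 and −0.02 over probe sets, which showed no pairing by number but cannot exclude it. Signal over background limits Cxcl10, Cxcl11, Ifng and Tbx21, among others. It also limits the size of differences where the Myd88-/- values lay within the span of the background controls. Cxcl9, Ccl8, Ccl22, Itgam, Irgm2 and Iigp1 are among these genes.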
